A study of Homo sapiens with 12 samples.

Results

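Chromatin immunoprecipitation with sequencing was used to map the forkhead transcription factor FoxK1 in HepG2, a human liver tumour line used as a model of hepatocytes. The account below is limited to FoxK1 peaks in the zinc finger gene clusters of chromosome 19. The clusters were taken as 4 intervals of build hg19, numbered along the chromosome: chromosome 19, 20000001 to 24500000 (the first), 36700001 to 38500000 (the second), 44300001 to 45000000 (the third) and 52500001 to 59128983 (the fourth, which ends at the chromosome end). A peak belongs to them when its summit lies inside, and peaks of any library that shared 1 bp or more were merged into regions. This gave 1639 of 223205 peaks and 413 of 68127 regions. The rest of chromosome 19, with 2454 regions, was the comparison.

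After 16 h in serum-free medium the cells were given insulin (20 min at 100 nM) or left untreated. Each condition had 3 immunoprecipitated libraries, each with a peak list of its own, and the 6 input libraries were not analysed here. The labels do not say whether the libraries of a condition are separate cultures, and p-values below therefore cover the spread between libraries, which may be technical. HepG2 is a single tumour-derived line with an abnormal karyotype. Sequencing depth is unknown, since peak lists carry no read totals. The insulin lists held 48208, 45057 and 27503 peaks and the untreated lists 44687, 31668 and 26082. Replicate 3 had the shortest list in both conditions, and results that turn on it are given with and without it.

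Human chromosome 19 carries tandem arrays of genes for Krüppel-type zinc finger proteins. Many of these proteins hold a KRAB domain, which recruits the corepressor TRIM28 and through it heterochromatin marks, often at transposable elements. The arrays arose by repeated duplication, and the gene bodies are known to carry repressive histone H3 lysine 9 methylation in many cell types while their promoters stay open. FoxK1 binds a forkhead motif, moves between cytoplasm and nucleus under insulin signalling, and is known as a repressor of autophagy genes and an activator of glycolytic genes. By symbol, 265 of the 573 protein-coding genes of RefSeq named as zinc finger genes (ZNF, ZFP, ZSCAN, ZIM, ZIK or ZKSCAN) are on chromosome 19. They make up 18.3% of its 1451 protein-coding genes.

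The names come from a table on another build (GRCh38.p14), so no gene was assigned to a peak and the gene content of the 4 intervals was not checked. The fourth interval is known to hold other gene families too, among them leukocyte receptor genes. A region below is therefore in an interval, and not shown to be at a zinc finger gene. For the same reason no sequence of a region is printed. The RefSeq promoter table (300 bases around each gene start) had an entry for 229 of the 265 genes. The forkhead core TGTTTAC, searched on both strands, was present in 2 of these 229 promoters (0.873%). It was present in 8 of 956 promoters of other protein-coding genes of chromosome 19 (0.837%) and in 931 of all 27305 promoters (3.41%). The last set is every entry, more than the 20056 protein-coding genes, so it is not a like set. No difference between these shares was tested.

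FoxK1 peaks were sparser in the zinc finger intervals than on the rest of chromosome 19 in each of the 6 libraries. The intervals had 26.0, 24.7 and 14.4 peaks per Mb in insulin replicates 1, 2 and 3, where the rest of the chromosome had 44.4, 41.9 and 20.2. In untreated replicates 1, 2 and 3 the intervals had 22.7, 18.9 and 13.5 peaks per Mb, where the rest had 37.7, 29.6 and 18.6. The ratio of the densities lay between 0.587 (insulin replicate 1, the longest list) and 0.726 (untreated replicate 3, the shortest list). Its mean on the log2 scale was -0.64 ± 0.14 (SD, n = 6 libraries; two-sided exact sign-flip permutation p = 0.0312, the smallest possible with 6). The same cells and genome stand behind all 6 libraries, so the test speaks of library-to-library spread only. The intervals make up 23.0% of chromosome 19 and held between 15.0% and 17.9% of its peaks.

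The low density was mostly that of the first interval, which borders the centromere. It had 9.11, 8.0 and 3.33 peaks per Mb in the insulin libraries and 8.89, 6.44 and 2.89 in the untreated libraries. That is between 0.155 and 0.236 times the density of the rest of the chromosome (exact sign-flip p = 0.0312, adjusted over the 4 intervals 0.0417). Density was higher in each following interval. In the second it was between 0.457 and 0.741 times that of the rest, and in the third between 0.709 and 0.922 times (adjusted exact sign-flip p = 0.0417 for each). In the fourth interval the ratio ran from 0.854 to 1.10, and its difference from the rest was within the spread of the libraries (mean log2 ratio -0.08 ± 0.16, SD, n = 6, exact sign-flip p = 0.25, adjusted 0.25). Without the first interval the mean log2 ratio of the other three together was -0.22 (exact sign-flip p = 0.0625), which ends the call. This split was chosen after seeing the data. Without the fourth interval it was -1.50 (exact sign-flip p = 0.0312). The longest stretch of the chromosome with no peak, 24324950 to 28283900, lies mostly outside the intervals and spans the centromere. With that stretch left out of the rest, the mean log2 ratio was -0.77 (exact sign-flip p = 0.0312).

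**Figure D1:**
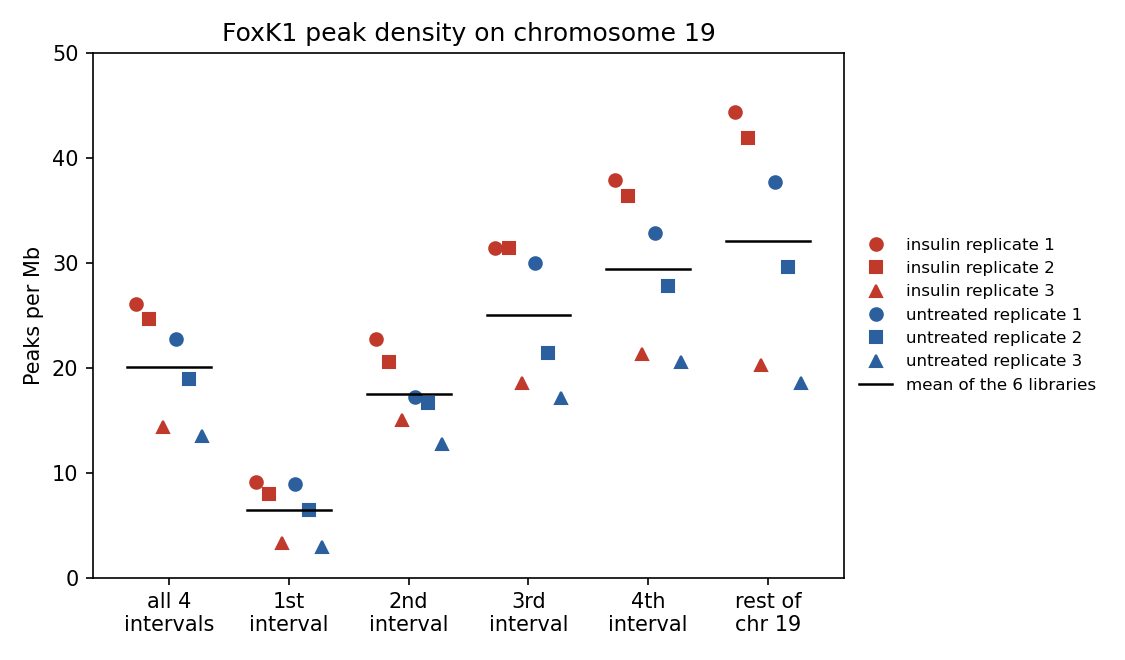
Peaks per Mb (y axis) in all 4 intervals, in each interval and on the rest of chromosome 19, 1 point per library, with insulin in red and untreated in blue and the mean of the 6 libraries as a line. The first interval lies between 2.89 and 9.11 peaks per Mb in every library, and the rest of the chromosome between 18.6 and 44.4.

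The 413 regions were spread unevenly. The first interval is 33.0% of the length of the 4 and held 46 regions (11.1%), the second held 41, the third 23 and the fourth 303 (73.4%). Per Mb this is 10.2, 22.8, 32.9 and 45.7 regions, against 53.9 on the rest of the chromosome. Windows of 100 kb with no region were 25 of 45 in the first interval, none of 18 in the second, none of 7 in the third and 8 of 67 in the fourth. On the rest of the chromosome 98 of 455 such windows were empty (21.5%). Over all 4 intervals 33 of 137 were (24.1%). The empty windows of the rest include those of the peakless stretch across the centromere, 3.78 Mb of which lies outside the intervals. The shares of empty windows were not computed without that stretch. Of the 137 windows, 34 (24.8%) held 5 regions or more, against 231 of 455 (50.8%) elsewhere. The median gap between neighbouring regions was 12.8 kb in the intervals and 6.52 kb elsewhere. Among regions called in all 6 libraries the median gaps were 35.5 and 32.2 kb, much closer to each other.

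The longest stretch without a region in the first interval ran from 22035222 to 23432677, a length of 1397 kb, or 31.1% of the interval. It ended at the region with the highest mean percentile among those of the first interval that all 6 lists had. The longest empty stretches of the other intervals were 163 kb (36706486 to 36869365), 73.7 kb (44331985 to 44405691) and 370.3 kb (56195809 to 56566128). The densest window of the first interval, 23400001 to 23500000, had 6 regions. That of the second, 38400001 to 38500000, had 8, of which none was called in all 6 libraries. In the third, 3 windows had 5 regions each. In the fourth interval the window at 56100001 to 56200000 had 14 regions, next to one with 13 at 56000001 to 56100000. A further window with 13 lay at 54000001 to 54100000. In steps of 500000 bp the fourth interval was nearly empty at 55000001 to 55500000, with 3 regions, and fullest in the next step, with 41. The number of regions differed across some bounds of the intervals and not one way. Within 100 kb there was 1 region inside and 7 outside at 36700001 and again at 44300001, and 8 inside and 3 outside at 38500000. Over the 7 inner bounds, 19 regions lay within 100 kb inside and 29 within 100 kb outside, and the nearest region had a mean percentile between 6.14 and 77.0 inside and between 9.49 and 98.4 outside.

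The peaks that were present in the intervals stood somewhat higher in their lists than other peaks of chromosome 19. Strength was read as the percentile of a peak's −log10 q among all peaks of its own list, so that 50 is the middle of the list. The median peak of the intervals stood at 61.6, 59.5 and 57.6 in insulin replicates 1, 2 and 3, where the rest of the chromosome stood at 52.0, 51.6 and 54.6. In untreated replicates 1, 2 and 3 the intervals stood at 59.8, 52.8 and 61.1, where the rest stood at 53.3, 50.5 and 57.0. The intervals were higher in 6 of 6 libraries, by 5.59 ± 2.91 percentile points (SD, n = 6, exact sign-flip p = 0.0312). The difference was 2.06 under a −log10 q minimum of 5 (exact p = 0.344) and 1.63 with lists of equal length (exact p = 0.219). It was therefore smaller where the weakest peaks were left out. It was -0.54 without the fourth interval (exact p = 0.75), which turns the direction.

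The 4 intervals did not behave alike in strength. In the first, the median peak was weaker than on the rest of the chromosome in 6 of 6 libraries, with a mean difference of -10.3 ± 6.21 percentile points (SD, n = 6). The exact sign-flip p was 0.0312 and 0.0417 after adjustment over the 4 intervals. The third and the fourth were higher in 6 of 6 libraries, by 9.47 ± 5.03 and 7.80 ± 2.47 points (SD, n = 6; adjusted exact sign-flip p = 0.0417 for each). The second was higher in 5 of 6, by 8.03 ± 6.73 points (adjusted exact sign-flip p = 0.0625), with a difference of -0.813 in insulin replicate 3.

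**Figure D2:**
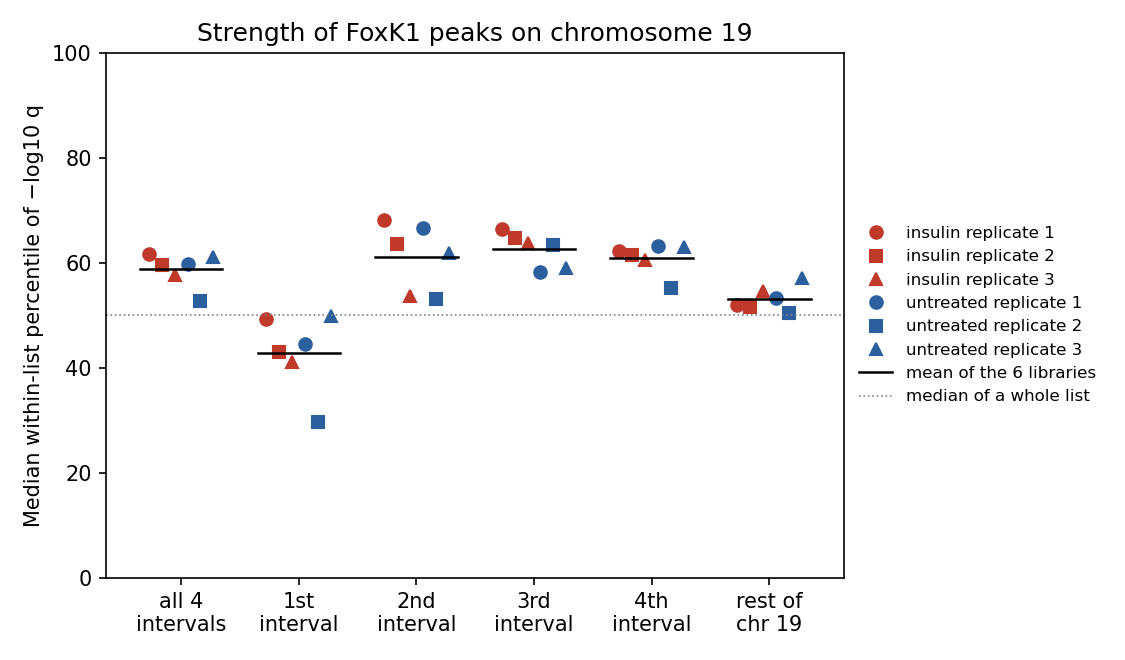
Median within-list percentile of −log10 q (y axis) of the peaks of all 4 intervals, of each interval and of the rest of chromosome 19, 1 point per library, insulin red and untreated blue, with the mean of the 6 libraries as a line and the middle of a whole list dotted. The first interval lies between 29.7 and 49.9, under its library's value for the rest of the chromosome in each case.

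Pooled over the 4 intervals, the excess strength was in the middle of the lists and not at their top. Peaks above the 90th percentile of their list were 9.01%, 8.63% and 6.63% of the interval peaks in the insulin libraries and 8.06%, 8.14% and 8.70% in the untreated libraries. On the rest of the chromosome these shares were 9.86%, 9.65% and 10.9% after insulin and 10.4%, 10.8% and 11.5% without it, higher in each library. The intervals differed in this too. The share was 0% in the first interval in every library and between 0% and 7.69% in the third. In the second it was 14.6%, 8.11% and 7.41% after insulin and 9.68%, 10.0% and 13.0% without it. In the fourth it was 9.96%, 10.4% and 7.09% after insulin and 9.63%, 9.78% and 9.56% without it. The lower quartile of the pooled interval peaks, in contrast, was higher than elsewhere. It stood at 34.9, 33.4 and 36.0 in the intervals and at 26.9, 25.4 and 30.5 elsewhere in the insulin libraries. In the untreated libraries it stood at 36.7, 29.6 and 38.1 in the intervals and at 25.6, 26.2 and 36.0 elsewhere. The authors' fold of the summit over background had a median of 6.91, 6.46 and 5.21 in the intervals after insulin and 4.91, 4.13 and 4.78 without it. Elsewhere it was 5.91, 5.49 and 4.88 after insulin and 4.41, 4.10 and 4.47 without it.

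The deposited fold and −log10 p together give the number of fragments at a summit and its expected background. The median summit of the intervals had 34, 47.5 and 23 fragments over a background of 4.17, 6.47 and 3.44 in the insulin libraries. In the untreated libraries it had 54, 37 and 25.5 fragments over a background of 10.8, 8.43 and 4.26. On the rest of the chromosome the summits had 29, 40 and 24 fragments over 4.03, 6.30 and 3.90 after insulin, and 50, 36 and 25 over 10.4, 7.99 and 4.65 without it. The background at interval peaks was thus close to that of the rest in each library and differed more between libraries. In the first interval it was lower than elsewhere in 5 of 6 libraries, at 2.61 and 4.51 in insulin replicates 1 and 2 and 6.20, 5.38 and 4.05 in untreated replicates 1, 2 and 3. In insulin replicate 3 it was 3.90 in both.

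Interval peaks were also wider. Their median width was 553, 671.5 and 540 bp after insulin and 614, 568 and 518.5 bp without it. Peaks of the rest of the chromosome were 469, 619 and 501 bp in width in the insulin libraries and 555, 562 and 489.5 bp in the untreated ones. The difference was positive in 6 of 6 libraries, at 44.9 ± 26.8 bp (SD, n = 6, exact sign-flip p = 0.0312), with 6 bp as the smallest. The call was lost with lists of equal length (24.3 bp, exact p = 0.0625), under a −log10 q minimum of 5 (33.6 bp, exact p = 0.125) and without the fourth interval (47.5 bp, exact p = 0.156). Merged regions that all 6 lists had were 1070 bp wide at the median in the intervals and 1095 bp elsewhere.

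Of the 413 regions, 139 (33.7%) were called in all 6 libraries and are referred to as shared, against 618 of 2454 (25.2%) on the rest of the chromosome. Over all merged regions of the genome the share was 23.3%. Of a library's interval peaks, 40.8%, 41.4% and 74.5% lay in shared regions in insulin replicates 1, 2 and 3, where 34.0%, 33.3% and 72.1% did on the rest of the chromosome. In untreated replicates 1, 2 and 3 the shares were 46.1%, 55.8% and 77.2% in the intervals and 38.8%, 48.2% and 77.2% elsewhere, so the intervals were higher in 5 of 6 libraries. Regions of a single library were 88 (21.3%) in the intervals and 664 (27.1%) elsewhere. The shared regions per Mb were therefore nearer to the rest, at 10.2 in the intervals and 13.6 elsewhere, than the count of all regions. By interval, 9 of 46 regions were shared in the first (19.6%), 18 of 41 in the second (43.9%), 9 of 23 in the third (39.1%) and 103 of 303 in the fourth (34.0%). The overlap of a pair of lists in base pairs (shared over covered by either) averaged 0.517 in the intervals and 0.457 elsewhere, and it was higher in the intervals for 14 of the 15 pairs. The pairs share libraries, so these values are a description and no test was made.

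**Figure D3:**
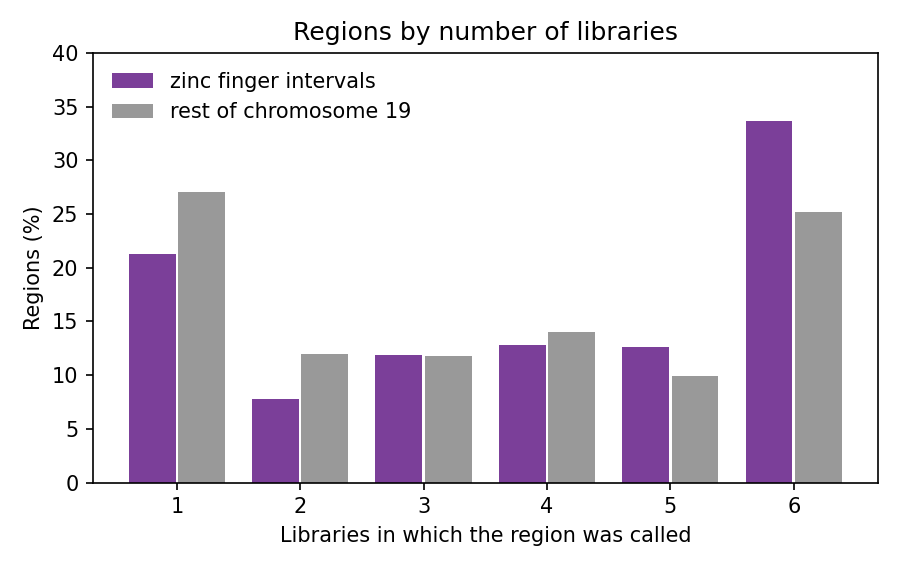
Percent of regions (y axis) by the number of libraries in which they were called (x axis), for the 413 regions of the zinc finger intervals (purple) and the 2454 of the rest of chromosome 19 (grey). Regions called in all 6 libraries are 33.7% of the first set and 25.2% of the second.

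Regions that narrowly missed being shared were mostly missing from a replicate 3 list. Of the 52 regions found in 5 libraries, 19 were missing in insulin replicate 3, 31 in untreated replicate 3 and 2 in untreated replicate 2. A further 37 regions were called in all 4 libraries of replicates 1 and 2 and in neither replicate 3 library. Counted over replicates 1 and 2 alone, 226 regions (54.7%) were in all 4 libraries, against 1108 (45.2%) of the rest of the chromosome. Of the 88 single-library regions, 36 were those of insulin replicate 1, 26 of insulin replicate 2 and 4 of insulin replicate 3. Untreated replicates 1, 2 and 3 held 8, 7 and 7 of them.

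The median shared region of the intervals had a mean percentile over the 6 libraries of 71.5, against 73.0 on the rest of the chromosome, and this difference was not tested. Of the 139, 19 (13.7%) had a mean percentile above 90, against 120 of 618 (19.4%) elsewhere. The highest reached 98.3, while the highest elsewhere reached 99.99. None of the 9 shared regions of the first interval passed 63.2. The summits of the 6 libraries in a shared region spanned a median of 96 bp in the intervals and 98 bp elsewhere, and 74 of the 139 (53.2%) had all 6 summits within 100 bp.

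The strongest shared region of the intervals lay in the fourth, at chromosome 19, 55717761 to 55718980. Its fold was 44.2, 35.6 and 18.9 in insulin replicates 1, 2 and 3 and 16.0, 14.2 and 14.3 in untreated replicates 1, 2 and 3. These summits had 240, 253 and 82 fragments after insulin and 229, 137 and 74 without it. The background there was 4.46, 6.13 and 3.40 after insulin and 13.3, 8.72 and 4.26 without it, lower after insulin in 3 of 3 same-numbered pairs. The fragment counts were higher after insulin in 3 of 3 pairs, while the groups overlap. They are not adjusted for depth. It ranked between 326 and 775 in each list, and all 6 summits lay within 39 bp.

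Next in the fourth interval came a pair of broad neighbours, 54640123 to 54642069 (1947 bp) and 54693018 to 54695522 (2505 bp). The fold of the first of the pair was 27.2, 23.3 and 18.9 after insulin and 16.0, 10.2 and 15.0 without it, with 6 summits within 24 bp. The second of the pair had folds of 16.8, 18.6 and 14.9 after insulin and 12.5, 9.57 and 15.6 without it, where the treatments overlap. The region at 57922146 to 57923130 had folds of 32.8, 28.5 and 9.85 after insulin and 14.6, 12.1 and 10.1 without it, which also overlap. The fifth, 59083983 to 59085318, is the last shared region above a mean percentile of 90 before the chromosome end. It had folds of 24.1, 21.2 and 17.4 after insulin and 11.1, 7.03 and 9.79 without it. Its fragments overlap, at 189, 224 and 74 after insulin and 206, 99 and 63 without it. The background there was 6.88, 9.60 and 3.31 after insulin and 17.6, 13.2 and 5.54 without it. Fold divides by this background, and the part of the background in the fold differences of the regions named was not tested.

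The second interval had 3 regions with a mean percentile above 90. The first of them, 37708545 to 37709480, had 138, 248 and 77 fragments at its summit after insulin and 180, 151 and 60 without it. Its fold was 27.6, 25.3 and 13.3 after insulin and 15.6, 15.0 and 8.25 without it, where the treatments overlap. Its rank lay between 502 and 1793. Shortly before it, at 37663310 to 37664035, folds were 26.4, 18.9 and 7.22 after insulin and 14.5, 13.1 and 10.5 without it, which also overlap. The third, 37063402 to 37065215, had folds of 22.3, 26.5 and 10.5 after insulin and 9.37, 6.96 and 9.21 without it. Its summits had 165, 206 and 49 fragments after insulin and 162, 101 and 52 without it. The background there was 6.45, 6.81 and 3.76 after insulin and 16.4, 13.7 and 4.75 without it. After these 3 regions the mean percentile dropped to 78.7 at 37328231 to 37329900 and 78.2 at 37406764 to 37407518.

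In the third interval the strongest shared region was 44668612 to 44669561, with folds of 19.4, 19.9 and 10.7 after insulin and 9.87, 6.54 and 5.89 without it. Its mean percentile was 89.2. Its summits had 117, 152 and 45 fragments after insulin and 153, 74 and 30 without it. The background there was 5.07, 6.68 and 3.31 after insulin and 14.6, 10.5 and 4.26 without it. The next, 44808746 to 44809588, had folds of 12.9, 15.4 and 10.1 after insulin and 9.29, 7.06 and 5.90 without it. The other leading shared regions were 44331149 to 44331984, 44555731 to 44556901 and 44598057 to 44598842, with mean percentiles of 77.0, 72.5 and 70.0. Among these by mean percentile stood a pair of regions found in 5 libraries, 44763676 to 44764306 at 81.7 and 44716191 to 44717407 at 77.0, and were named after their values were seen. At 44555731 to 44556901 the 6 summits spanned 458 bp, wider than at most shared regions.

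None of the 5 leading shared regions of the first interval ranked above 7355 in any list. A region that insulin replicate 3 lacked, 23586198 to 23586865, stood higher, with a mean percentile of 75.9 over its 5 libraries and a best rank of 3747, in untreated replicate 2. It was named after its values were seen. The first of the shared regions, 23432678 to 23433566, had 29, 69 and 27 fragments after insulin and 57, 35 and 27 without it. Folds there were 6.52, 11.5 and 4.89 after insulin and 6.22, 4.36 and 4.75 without it, and its best rank was 8864. The second, 24322764 to 24323397, is among the last peaks before the centromere. It had a fold of 15.4 in insulin replicate 1 and 11.2 in untreated replicate 1, and between 4.04 and 6.47 in the other 4 libraries. The regions at 21579518 to 21580298, 21264684 to 21265434 and 20162758 to 20163641 had mean percentiles of 59.1, 56.0 and 52.4.

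**Figure D4:**
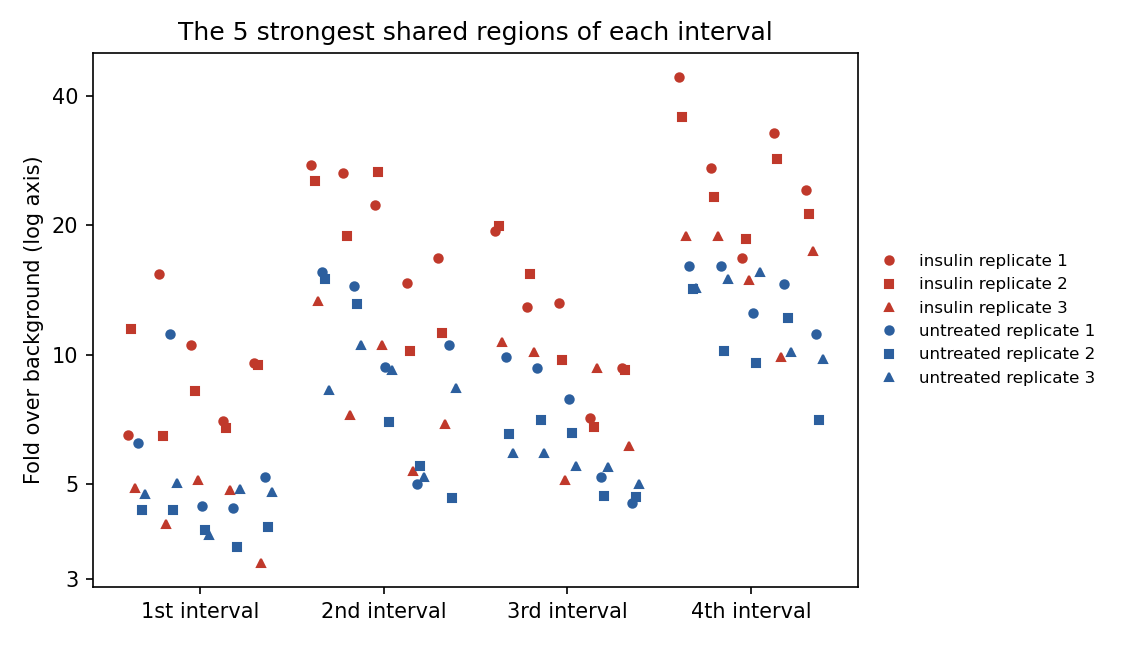
Fold over background (y axis, log scale) at the 5 shared regions (called in all 6 libraries) of each interval with the highest mean percentile, 1 point per library, insulin red and untreated blue. Folds of these regions in the first interval reach at most 15.4, while the strongest region of the fourth reaches 44.2.

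The comparison of treatments asks whether insulin changed FoxK1 binding here. The intervals held 355, 336 and 196 peaks in insulin replicates 1, 2 and 3 and 310, 258 and 184 in untreated replicates 1, 2 and 3. The means were 295.7 ± 86.8 after insulin and 250.7 ± 63.3 without it (SD, n = 3 each), and the groups overlapped. The difference of 45.0 peaks was smaller than the spread within either group (exact permutation p = 0.5, two-sided, and 3 against 3 libraries cannot give less than 0.1). The rest of chromosome 19 moved with it, with 1615 ± 604 peaks after insulin and 1303 ± 437 without it (SD, n = 3 each). As a share of the chromosome's peaks, the intervals held 15.0%, 15.0% and 17.5% after insulin and 15.3%, 16.1% and 17.9% without it. The means were 15.8% ± 1.49 and 16.4% ± 1.31 (SD, n = 3 each, exact permutation p = 0.5). These tests are unpaired. Within same-numbered pairs the number of peaks was higher and the share lower after insulin in 3 of 3. The exact sign-flip p was 0.25 for each, the smallest possible with 3 pairs. In each pair the insulin list as a whole was also the longer one. Both replicate 3 libraries had the highest share of their treatment.

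Neither the within-list percentile nor the width of the peaks of all 4 intervals pooled separated the treatments. The median percentile averaged 59.6 ± 2.02 after insulin and 57.9 ± 4.45 without it (SD, n = 3 each, exact permutation p = 0.7), with overlap. A percentile within a list cannot show a shift common to the whole list. The median deposited fold of interval peaks did not overlap, at 6.91, 6.46 and 5.21 after insulin and 4.91, 4.13 and 4.78 without it. On the rest of the chromosome it did not overlap either, at 5.91, 5.49 and 4.88 against 4.41, 4.10 and 4.47. The difference in fold was not tested. The median width averaged 588 ± 72.5 bp after insulin and 567 ± 47.8 bp without it (SD, n = 3 each, exact permutation p = 0.7). In each interval taken alone, the exact permutation p for the number of peaks was between 0.3 and 0.7. For strength, the third interval stood at 66.4, 64.8 and 63.8 after insulin and at 58.3, 63.4 and 59.0 without it. These groups do not overlap, and the exact permutation p of 0.1 is the smallest the design allows, before any adjustment for the 4 intervals. The medians rest on few peaks, 22, 22 and 13 after insulin and 21, 15 and 12 without it, and the nearest values of the groups are close.

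By the rule of 3 libraries of one treatment and none of the other, 1 region belonged to one treatment alone. This region, 56015183 to 56015707 in the fourth interval, had peaks in 3 of 3 insulin libraries and 0 of 3 untreated libraries (1 of 413, 0.242%, where the share over all merged regions is 0.376%). It was weak, since its fold was 3.51, 3.31 and 3.65 in the 3 insulin lists and its percentile lay between 18.3 and 19.1. No region showed the reverse, for which the share over all merged regions is 0.0352%. With 1 library left out the insulin count rose to 3 (no insulin replicate 2), 14 (no insulin replicate 3), 7 (no untreated replicate 1) or 2 (no untreated replicate 2). The reverse count became 1 without insulin replicate 1 or untreated replicate 3. A rule over fewer libraries is easier to meet, and its share over all merged regions was not computed. These counts therefore cannot be set against the genome. With lists of equal length, or under a −log10 q minimum of 5, both counts were 0.

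Of the 139 shared regions, 15 had a percentile in all 3 insulin libraries above all 3 untreated ones (10.8%, where the share over all shared regions of the genome is 8.65%). None was below in all 3, where that share is 0.85%. On the rest of chromosome 19 the shares were 6.80% (42 of 618) and 0.647%. No difference between these shares was tested. Percentiles depend on how many weak peaks each list holds, and the insulin lists were longer on average. The median shift of a shared region was 4.80 points toward insulin in the intervals, 2.74 on the rest of the chromosome and 2.94 over the genome. Within replicates 1 and 2, where both insulin lists are longer than both untreated ones, 77 of the 139 (55.4%) were higher in both insulin libraries and 2 (1.44%) were lower. On the rest of chromosome 19 these shares were 38.3% and 4.05%, and over the genome 34.9% and 4.88%. The median shared region of the intervals stood at 81.6, 79.7 and 66.7 after insulin and at 76.6, 68.8 and 68.2 without it. Relative to shared regions of the rest of the chromosome this is -1.58, -2.67 and 0.09 points after insulin and -2.87, -5.64 and 2.14 points without it, so the treatments overlap.

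The 15 regions differed by between 3.11 and 38.3 percentile points, with 1, 3, 2 and 9 of them in the first to the fourth interval. The most different was 58693336 to 58695284, with percentiles of 67.6, 58.7 and 50.9 after insulin and 38.6, 4.50 and 19.2 without it. Its summit had 55, 54 and 23 fragments after insulin and 52, 31 and 16 without it, over a background of 9.10, 9.36 and 4.20 after insulin and 15.9, 14.5 and 4.52 without it. Within same-numbered pairs the fragments were higher and the background lower after insulin in 3 of 3, while both groups overlap. At 55987403 to 55988636 percentiles were 73.1, 76.1 and 69.3 after insulin and 59.4, 62.3 and 6.63 without it. Untreated replicate 3 stood far below the other 5 libraries there.

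At 44575757 to 44576860 percentiles were 58.2, 43.6 and 56.5 after insulin and 36.4, 17.9 and 18.8 without it, and the summits of the 6 libraries spanned 485 bp. At 54371941 to 54373119 they were 75.0, 80.2 and 86.5 after insulin and 63.9, 36.1 and 68.2 without it. At 53934473 to 53935856 they were 65.6, 71.5 and 64.6 after insulin and 62.7, 49.6 and 17.9 without it, with summits over 540 bp. In the last region the lowest insulin value was close to the highest untreated one. The members were picked for this order, so these values are a description with no test. The part of the lower background of the insulin lists in these percentiles was not tested.

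**Figure D5:**
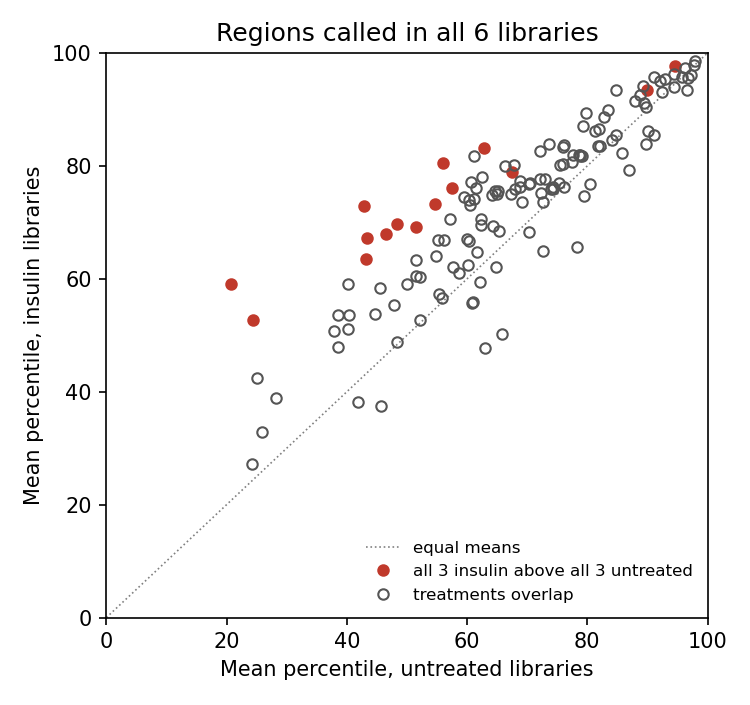
Mean within-list percentile in the 3 insulin libraries (y axis) against that in the 3 untreated libraries (x axis) for the 139 interval regions called in all 6 libraries. The 15 filled points have all insulin values above all untreated values, and the dotted line marks equal means.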

How the data were processed

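FoxK1 chromatin immunoprecipitation libraries of HepG2 cells were analysed from 6 deposited peak lists, 3 after insulin and 3 untreated, grouped by the sample titles. The build is hg19, and fastp, Bowtie2, SAMtools and MACS2 are listed as tools, per the submitters' processing notes; their versions, the calling threshold and the use of the inputs are not stated there. The authors called peaks library by library, as the peak names show. The deposited fold is a linear ratio of the summit over the background estimated by the peak caller. The −log10 p and −log10 q of a peak, as deposited, vary with library depth, and the authors' score is 10 times the −log10 p (within 1 in 100% of peaks). These values were used only to describe and rank peaks within a list, so strength is a percentile of −log10 q in its own list.

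Summits were the start plus the summit offset. Peaks sharing at least 1 bp were merged over the genome, and where a library had several peaks in a region the strongest was used. Fragments and background at a summit were solved from fold = (fragments + 1) / (background + 1) and a Poisson upper tail. Exactly 1 whole number solved both, to 0.0005 in −log10 p (scaled up beyond 10), for 100% of the 10393 peaks of chromosome 19. Differences between the intervals and the rest were taken within each library and tested by exact sign-flip over 64 assignments; treatments were compared by exact permutation over 20 assignments. Both are two-sided. Merging with region calls and the recovery of fragment numbers were tested on simulated data, and both exact tests on small inputs with known answers. The other steps were not tested in this way.

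Members, lists and tests were chosen with earlier results of these data known. The regions named are the 5 of each interval with the highest mean percentile among regions called in all 6 libraries, every region of 3 against 0 libraries, the 5 with the largest difference in each direction among regions whose treatments do not overlap, and the fullest windows and longest gaps. Same-numbered libraries were taken as pairs, since their deviations from the treatment mean over all regions called in all 6 libraries correlated at 0.151, 0.218 and 0.266. Libraries of unlike number correlated between -0.275 and 0.108, the highest being insulin replicate 2 with untreated replicate 1. The pairing comes from these data and not from the labels. The main treatment tests were unpaired, and the pairs entered as a replicate block and in descriptions of same-numbered libraries. The share of peaks at promoters and the forkhead motif at summits were planned only for an hg19 reference and were not computed. Coordinates are 1-based. Python 3.11.15, numpy 2.4.6, pandas 2.3.3, scipy 1.17.1 and matplotlib 3.10.9 were used.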

Additional observations from a re-analysis of the deposited data

How the results depend on the processing

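The lower density of the intervals kept its sign in 13 of 13 alternatives, ranging from -0.68 to -0.62 on the log2 scale with each library left out, where an exact p of 0.0625 is the smallest possible. It was -0.73 without both replicate 3 libraries (smallest possible p 0.125). With −log10 q of at least 5 it was -0.58, and with lists of equal length -0.52 (exact sign-flip p = 0.0312 for both). It was -1.50 without the fourth interval and -0.22 without the first interval, a setting chosen after seeing the data. The strength difference ranged from 4.78 to 6.24 points with each library left out. It was 6.61 without both replicate 3 libraries, 2.06 with −log10 q of at least 5, 1.63 with lists of equal length and, reversed, -0.54 without the fourth interval. In that last setting the first interval makes up more of the peaks. The cause of these changes was not tested. The width difference ranged from 37.1 to 52.7 bp with each library left out and was 50.4 bp without both replicate 3 libraries, 33.6 bp with −log10 q of at least 5 (exact p = 0.125), 24.3 bp with equal lengths (exact p = 0.0625) and 47.5 bp without the fourth interval (exact p = 0.156), each of which ends the call.

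No treatment difference passed the threshold under any setting, and 3 against 3 cannot. Leaving out each library gave -1.44 to 0.14 percentage points for the share of peaks (positive without untreated replicate 3, and 0.0424 with equal lengths), 11.7 to 94.8 for the peak number, -0.84 to 3.28 points for strength (negative without untreated replicate 2) and -20.3 to 45.4 bp for width (negative without insulin replicate 2 or untreated replicate 3, at -2.83). With the replicate block the share difference stayed -0.58 and the peak difference 45.0 (exact sign-flip p = 0.25 for both, the smallest with 3 pairs), and the block changed no call.

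Regions called in all 6 libraries numbered 139 to 170 with each library left out, 226 without both replicate 3 libraries (4 libraries), 36 without the fourth interval and 70 where a library had to cover 50% of a region. Insulin-only regions numbered 1 to 14 with each library left out, 16 without both replicate 3 libraries and 0 with −log10 q of at least 5, equal lengths or without the fourth interval; untreated-only regions numbered 0 to 1, with 1 also without both replicate 3 libraries and with summits within 100 bp. For regions of one treatment alone, shares over all merged regions were not computed under these settings. Unknown depth limits all counts of absent peaks.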
